A study of Mus musculus with 4 samples.

Results

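The nuclear-encoded subunits of the respiratory chain and ATP synthase were followed through the immune cells of mouse tumours. They were the genes whose symbol in the deposited gene lists began with Ndufa, Ndufb, Ndufc, Ndufs or Ndufv (complex I), Sdha, Sdhb, Sdhc or Sdhd (complex II), Uqcr (complex III), Cox4i, Cox5, Cox6, Cox7 or Cox8 (complex IV), or Atp5 (complex V, the ATP synthase). Symbols of pseudogenes (ending in -ps) and of assembly factors (af and a number) were left out. The rule took 85 of 27998 genes, of which 38 were of complex I, 4 of complex II, 8 of complex III, 18 of complex IV and 17 of complex V. The choice used symbols alone and no measured value. By symbol Ndufa4 was counted with complex I, although the protein is now known as a subunit of complex IV. Atp5s and Atp5sl carry the prefix without being core subunits of the ATP synthase, and Cox7a2l acts in joining complexes III and IV.

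Tumours had been transplanted into wild-type mice of the 129S6 strain. One group of mice received a rat IgG2a control antibody, one anti-PD-1 (clone RMP1-14), one anti-CTLA-4 (clone 9D9) and one both checkpoint antibodies (the combination). Each dose was 200 µg, injected into the peritoneum on days 3, 6 and 9 after the transplant. Live cells carrying CD45, the surface marker of blood-derived cells, were sorted to a purity above 96% and run on the 10x Genomics Chromium with the version 1 kit for 3′ ends. Each of the 4 groups was 1 library. The sources used name neither the tumour line nor the ages of the mice, nor the number of animals behind each library. Replicates were therefore lacking, and no test was made. The 95% intervals below are exact Poisson or binomial intervals that cover counting error only, so a difference between libraries outside them is a difference between those libraries, not shown to belong to the treatment.

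The authors' table of quality-filtered cells gave a cluster number from 0 to 18 for 14491 cells with counts. These were 3793 control cells, 3417 after anti-PD-1, 3336 after anti-CTLA-4 and 3945 after both. Runs of 4 values below follow this order, and runs of 3 give the treated libraries alone. These cells held 47589092 UMIs (molecular barcodes that let each captured transcript be counted once), between 11176246 and 13374294 per library, and the median cell had between 2549 and 2991. From 12 to 25 barcodes were shared by any pair of libraries. Ptprc, the gene for CD45, had a UMI in 52.9% of all listed cells, but in only 12.7% (7 of 55) of cluster 18, whose leading genes were collagens. Marker genes gave clusters 1, 2, 4, 7 and 15 the name macrophage/monocyte-like. They gave clusters 3, 6, 8, 9 and 10 the name T cell-like. Cell cycle genes led clusters 9 and 15. Among the rest, cluster 12 was neutrophil-like and cluster 5 NK cell-like. The dendritic cell-like clusters were 11 (conventional), 16 (plasmacytoid) and 17 (migratory). Cluster 18 matched tumour cells or fibroblasts. No name was given to clusters 0, 13 and 14. Cluster 0, the largest with 2319 cells, had 12 macrophage/monocyte markers detected but 0 among its 10 leading genes. It is left out of the macrophage/monocyte-like class, and values with it added are given near the end.

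The respiratory chain sits in the inner membrane of mitochondria. Complexes I and II pass electrons from NADH and succinate to ubiquinone, complex III passes them on to cytochrome c, and complex IV to oxygen; complexes I, III and IV pump protons, and complex V uses the returning protons to make ATP. A few subunits of complexes I, III, IV and V are encoded in mitochondrial DNA, none of complex II, and all others come from nuclear genes spread over the genome. In macrophages, exposure to interferon and bacterial products is known to lower mitochondrial respiration, while dividing T cells raise it.

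The 85 genes lay on 19 chromosomes (mm10 annotation), 3 of them on X. Their promoters are shown because the genes are known to share binding motifs of the factors NRF1, GABP (an ETS family factor) and YY1. Motif presence was not compared with any level. RefSeq promoter windows of GRCm38.p6 (250 bases before the start and 50 after it) were found for 67 members. The NRF1 consensus motif was in 25.4% of these members and in 5.19% of all genes with a window. The ETS motif CCGGAAG was in 23.9% against 9.93%, and the YY1 motif AAGATGGCG in 10.4% against 1.64%. Any of the 3 was in 34 of the 67 members (50.7%), against 15.1% of all genes. Both strands were searched, and the NRF1 motif reads nearly alike on both. A match is only a run of letters and shows no binding. The 250 bases before the start are printed 5′ to 3′ for 4 members that recur below, with motif matches in capitals: Cox6a1, the widely expressed partner of Cox6a2, at chr5:115348959-115349208; Sdhd, at chr9:50603850-50604099; Ndufa4, at chr6:11907451-11907700 (these 3 on the minus strand); and Ndufc2, at chr7:97399753-97400002 on the plus strand.
Cox6a1: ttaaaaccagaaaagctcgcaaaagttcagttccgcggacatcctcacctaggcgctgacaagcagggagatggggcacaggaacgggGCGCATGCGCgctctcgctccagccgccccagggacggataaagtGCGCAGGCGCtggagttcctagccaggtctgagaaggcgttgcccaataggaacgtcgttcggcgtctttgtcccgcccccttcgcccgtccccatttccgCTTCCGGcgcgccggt
Sdhd: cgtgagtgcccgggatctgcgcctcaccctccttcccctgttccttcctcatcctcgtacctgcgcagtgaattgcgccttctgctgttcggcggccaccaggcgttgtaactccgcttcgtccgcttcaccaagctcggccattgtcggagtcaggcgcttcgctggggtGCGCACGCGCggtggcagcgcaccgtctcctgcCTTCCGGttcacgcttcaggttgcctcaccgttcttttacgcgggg
Ndufa4: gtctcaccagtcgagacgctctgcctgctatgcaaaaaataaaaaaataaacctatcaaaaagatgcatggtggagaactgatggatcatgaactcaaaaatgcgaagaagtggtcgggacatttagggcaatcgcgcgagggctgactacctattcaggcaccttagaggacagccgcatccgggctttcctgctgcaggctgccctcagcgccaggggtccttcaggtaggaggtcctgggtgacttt
Ndufc2: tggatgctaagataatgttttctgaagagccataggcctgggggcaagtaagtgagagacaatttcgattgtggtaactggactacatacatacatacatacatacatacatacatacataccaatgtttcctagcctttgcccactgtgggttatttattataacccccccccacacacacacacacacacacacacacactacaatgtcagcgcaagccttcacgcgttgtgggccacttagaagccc
Cox6a1 held 2 NRF1 matches and 1 ETS match, and Sdhd 1 of each, while the windows of Ndufa4 and Ndufc2 held none of the 3 motifs.

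Together the members took 1234425 UMIs, or 2.59% of all UMIs, against 1.05% for the 13 subunits encoded in mitochondrial DNA. Of the 85 genes, 82 had a UMI. Cox7b2, Cox8b and Cox8c, known as testis or muscle isoforms, were at 0 in all libraries. At least 1000 UMIs were counted for 75 genes. The remaining 7 were Cox6a2 (650 UMIs), Atp5sl (595), Cox4i2 (277), Cox7a1 (247), Cox6b2 (203), Atp5s (100) and Ndufa4l2 (27). Levels are given as counts per 1000000 UMIs of the same cells (CPM). They are not divided by transcript length because only 3′ ends are tagged, and levels of different genes are listed here without being ranked.

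In complex I, Ndufa13, a membrane-arm subunit, stood over all listed cells at 507, 480, 519 and 512 CPM. Ndufa2 stood at 463, 475, 447 and 488 CPM and Ndufa6 at 370, 360, 364 and 385. These 3 levels moved little between libraries. In complex II, Sdhb, the iron-sulphur subunit, stood at 286, 274, 352 and 277 CPM, highest with anti-CTLA-4. Sdhd, a membrane anchor, stood at 165, 202, 200 and 176 CPM. Sdha, the flavoprotein that binds succinate, stood at 87.8, 93.0, 82.2 and 70.2 CPM, lowest with the combination.

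In complex III, Uqcrh, the hinge protein near cytochrome c1, stood at 635, 597, 668 and 675 CPM. Uqcrq stood at 402, 467, 476 and 465 CPM and Uqcr10 at 419, 449, 476 and 426, with the control library lowest for both. In complex IV, Cox4i1, the common form of the regulatory subunit 4, stood at 1283, 1271, 1440 and 1467 CPM and was seen in 91.6% of cells. Cox8a stood at 1004, 1162, 1202 and 1157 CPM and Cox6b1 at 788, 920, 916 and 889, again with the control lowest. In complex V, Atp5l stood at 941, 986, 1008 and 994 CPM, the rotor subunit Atp5e at 610, 637, 668 and 661, and the catalytic subunit Atp5b at 521, 540, 552 and 496. In 68.2% of 98-base windows near its 3′ end, Atp5l is identical to another annotated gene, led by a processed pseudogene, so reads may be split between them. In all, 13 members shared such windows with other genes, and none with another member.

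Summed over the members, the level ran over a narrow range across the clusters, with a pair of clusters far below the rest. The highest sums were 29888 CPM in cluster 11 (conventional dendritic cell-like; 95% interval 29609 to 30170), 29819 in cluster 9 (cycling, T cell-like; 29630 to 30010), 29335 in cluster 18 and 29130 in cluster 16 (plasmacytoid dendritic cell-like). The intervals of clusters 11, 9 and 18 overlap, so these 3 have no firm order, and cluster 16 (28691 to 29575) lies below the intervals of 11 and 9. The lowest were 16608 CPM in cluster 12 (neutrophil-like; 16257 to 16964), 18605 in cluster 7 (macrophage/monocyte-like; 18444 to 18766) and 22877 in cluster 17 (migratory dendritic cell-like). The other 12 clusters lay between 23863 (cluster 14) and 28442 (cluster 10). The authors made the clusters from these same counts, so such differences are a description. With mitochondrially encoded and ribosomal protein genes out of the total, the order at the top changed: clusters 9, 18, 8 and 10 led at 40147, 38535, 38177 and 37771 CPM, with cluster 11 at 37177 and cluster 16 at 35825. Clusters 7 and 12 remained the lowest on that scale, at 21081 and 18503 CPM. In the plot of summed levels by cluster, clusters 7 and 12 stood below all others in each library.

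**Figure D1:**
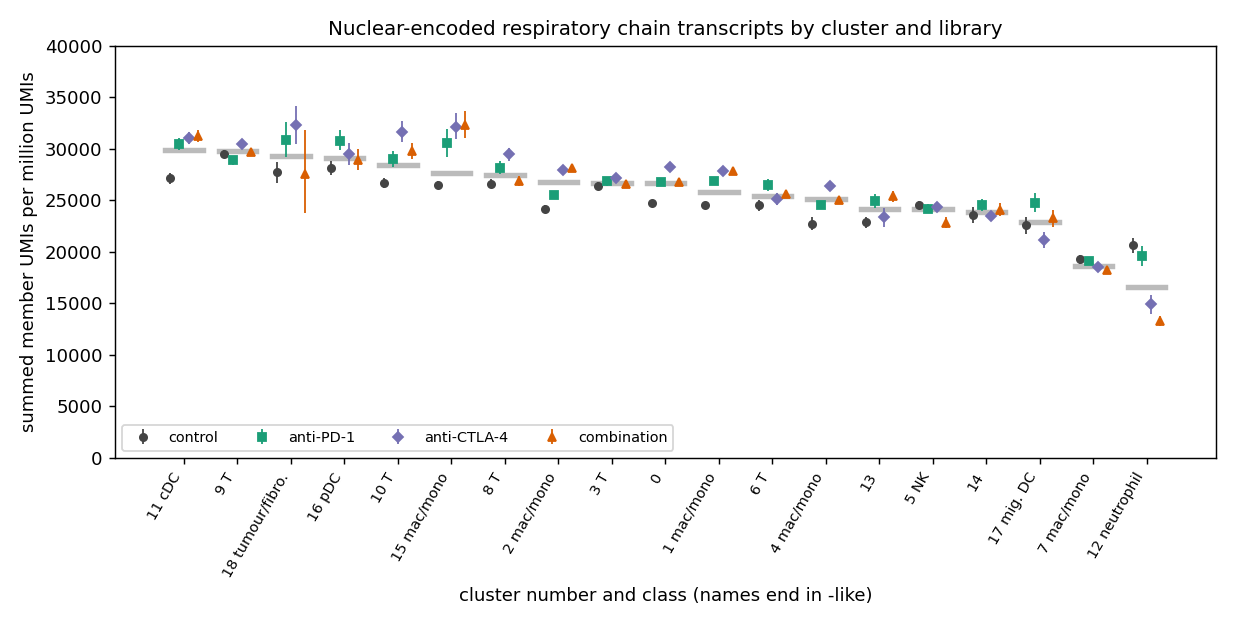
Summed level of the 85 members in each of the 19 clusters, in CPM, with 1 symbol per library and error bars for the exact Poisson 95% interval; grey bars join all libraries. Cluster 11 was highest at 29888 CPM over all libraries, and clusters 7 and 12 lowest at 18605 and 16608.

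Of the 75 members with at least 1000 UMIs, 41 (54.7%) were lowest in cluster 12 and 16 (21.3%) in cluster 7. Of all 4639 genes with as many UMIs, 27.4% were lowest in cluster 12 and 8.86% in cluster 7. The correlation of a member's level with the sum of the other members over the 19 clusters was above 0 for all 75 (median Pearson r 0.68), lowest for Cox7a2l and Uqcrh. The correlation with the summed members was above 0 for 69.9% of all genes (median r 0.23). The clusters share libraries and a common total, so these are given as a description. The median member was 2.50-fold higher in its highest than in its lowest cluster. Cox8a was the most even, at 1.53-fold, from 846 CPM in cluster 18 to 1292 in cluster 0. Ndufs1, the largest subunit of complex I, was the least even at 5.61-fold, with only 5.85 CPM in cluster 12 and 32.8 in cluster 9. Complex IV had the lowest median coefficient of variation over clusters (0.172) and complex III the highest (0.262).

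Most clusters had members that stood out. Uqcrh led in T cell-like cluster 6 and in cluster 17 (981 and 947 CPM, against 630 in the median cluster) and came after Atp5sl in T cell-like cluster 3 (1058). Atp5sl had the highest fold over the median cluster in clusters 3 and 5, at 24.9 and 25.8 CPM against 12.3, from 71 and 52 UMIs. Sdhd led in clusters 0 and 4 (232 and 265 CPM, against 147), together with Ndufb8, a membrane-arm subunit of complex I (413 and 403, against 295). Ndufa6 and Uqcr11 led in the dendritic cluster 11 (647 and 519 CPM, against 360 and 327). Cox7a2, a subunit of complex IV, and Atp5d, a stalk subunit of complex V, led in cluster 14 (683 and 535 CPM, against 373 and 347). Ndufc2 and Ndufa5, both of complex I, led in cluster 15 (422 and 297 CPM, against 191 and 167). Ndufa10 led in cluster 8 (209 CPM, against 123), and Ndufa8 stood high in cluster 10 (309, against 182).

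Of the ATP synthase c-ring genes, which encode the same mature protein, Atp5g1 led in collagen-rich cluster 18 at 911 CPM, against 375 in the median cluster, but 73 of its 167 UMIs there came from 10 cells of the anti-PD-1 library, 39 of them from 1 cell. Atp5g3 led in clusters 9 and 16 (302 and 320 CPM, against 176). Ndufa9 came after Atp5sl in NK cell-like cluster 5, at 277, 144, 58.4 and 63.0 CPM. Single cells held up to 38 and 43 Ndufa9 UMIs in the control and anti-PD-1 libraries and at most 2 in the others. With each cell counted up to 20 UMIs, the first 2 levels were 225 and 104 CPM.

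Cluster 7 was the macrophage/monocyte-like cluster with the lowest respiratory chain levels. Its leading genes were the interferon-induced Rsad2, Ifit1, Ifit2 and Ifit3 and the nitric oxide synthase gene Nos2. Summed members stood at 19265, 19119, 18525 and 18232 CPM in cluster 7. The other macrophage/monocyte-like clusters together stood at 24698, 25738, 27594 and 26728 CPM. The 2 sets did not overlap, and the log2 difference was -0.36 (95% interval -0.39 to -0.32), -0.43 (-0.46 to -0.40), -0.57 (-0.60 to -0.55) and -0.55 (-0.57 to -0.53). In the median cell, members made up 1.81%, 1.79%, 1.75% and 1.72% of UMIs in cluster 7 and 2.37%, 2.51%, 2.75% and 2.76% in cluster 2, over cells with at least 1000 UMIs. Cluster 4 lay nearer to cluster 7, at 2.20%, 2.40%, 2.48% and 2.43%. Cluster 7 held 2.79%, 4.07%, 8.45% and 8.19% of the listed cells. Set against macrophage cluster 2 alone, the combination gave -0.63.

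Over all libraries the difference between cluster 7 and the other macrophage/monocyte-like clusters was -0.61 on the log2 scale for complex I (5420 against 8266 CPM), -0.65 for complex II (446 against 699), -0.43 for complex III (1960 against 2639), -0.35 for complex IV (6052 against 7700) and -0.51 for complex V (4727 against 6739). The subunits encoded in mitochondrial DNA were lower still over all libraries, by -0.86 (6261 against 11354 CPM). Cluster 7 held 5.43%, 9.06%, 16.9% and 17% of the class's UMIs in the 4 libraries. Differences between libraries therefore enter these pooled values. Complex IV was the least reduced of the 5 complexes in the control and anti-CTLA-4 libraries and with the combination; with anti-PD-1 it was complex II.

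Members were counted as higher where their level was more than 25% above that of the other side, and as lower where it was more than 20% below it, which is the same fold, with at least 50 UMIs over both sides. In cluster 7, 48 of 80 members were lower past this fold in the control library, where 44% of all genes tested were (7399 genes). In the anti-PD-1 library it was 51 of 75 (39.9% of all genes), after anti-CTLA-4 65 of 77 (44.9%) and after both antibodies 63 of 76 (45.3%). With the libraries summed it was 63 of 80 (48.8%). At most 1 member was past the fold on the higher side in any library (23.4%, 23.8%, 23.2% and 19.2% of all genes). The members' median log2 difference was -0.36, -0.50, -0.70 and -0.66, against -0.22, -0.16, -0.23 and -0.25 for all genes. Lower past the fold in each of the 4 libraries were 26 of 75 members, against 13.8% of all genes, and no member was higher in each (6.83%). Of these 26, 19 were of complex I (of 37 tested), 1 of complex II (of 4), none of complex III (of 8), 1 of complex IV (of 11) and 5 of complex V (of 15).

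The lowest member was Ndufc2, a membrane-arm subunit of complex I, at 143, 119, 125 and 114 CPM in cluster 7 against 299, 252, 275 and 214 in the other macrophage clusters. Its log2 difference was -1.05, -1.06, -1.13 and -0.91, and -1.10 (-1.26 to -0.94) with the libraries summed. The 2 sets of Ndufc2 levels did not overlap. Ndufs7, which carries an iron-sulphur cluster of complex I, stood at 132, 117, 106 and 103 CPM against 208, 217, 268 and 241. Atp5g1 stood at 234, 183, 180 and 130 CPM against 383, 330, 375 and 355. Ndufa5 and Ndufa12 had mean log2 differences of -0.97 and -0.96 over the libraries. Ndufs4, another subunit of complex I, stood near 0, at 127, 135, 130 and 121 CPM in cluster 7 against 133, 121, 134 and 122. In the plot of members in cluster 7, 66 of the 75 lay below 0 in all 4 libraries. The same share was not computed for all genes. In single libraries 3 of 80, 5 of 75, 2 of 77 and 4 of 76 members were above 0, against 37.9%, 39.8%, 37.2% and 34.7% of all genes.

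**Figure D2:**
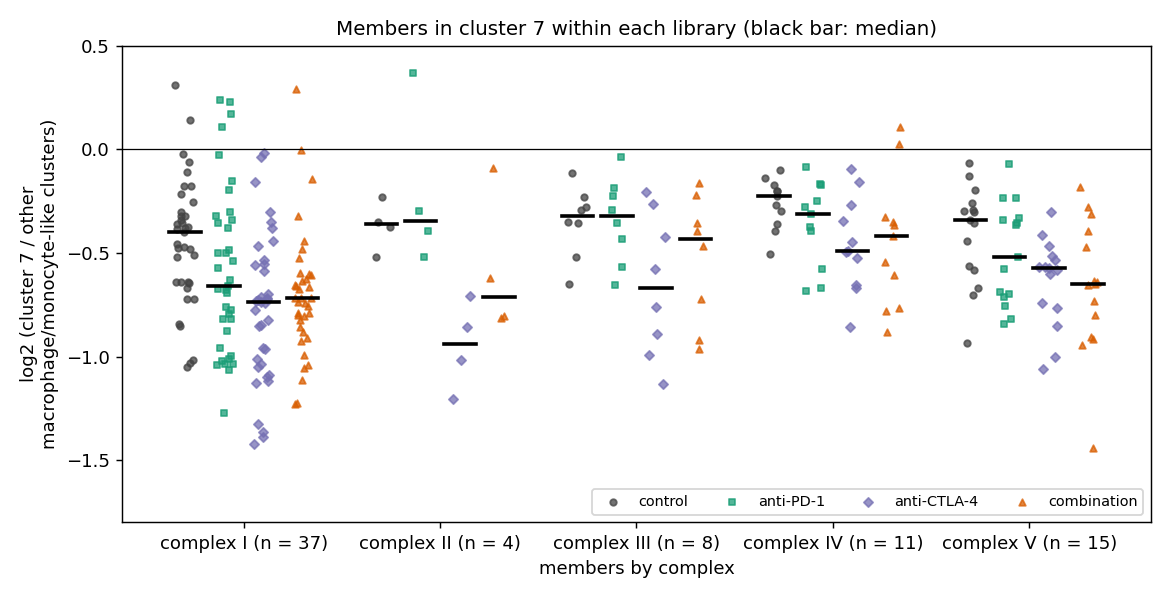
Log2 difference of each member between cluster 7 and the other macrophage/monocyte-like clusters, by complex and library, for the 75 members that passed the count minimum in every library (37, 4, 8, 11 and 15 by complex); black bars are medians. Most points lie below 0, down to mean values of -1.04 for Ndufc2.

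Other genes of mitochondrial metabolism were counted by the same fold in cluster 7. These counts are to be read beside all genes tested, of which 44%, 39.9%, 44.9% and 45.3% were lower in the 4 libraries. Of the tricarboxylic acid cycle genes, which feed electrons to the chain, 8 of 16, 9 of 15, 11 of 15 and 11 of 16 were lower in the 4 libraries. Of the mitochondrial ribosomal protein genes, 47 of 74, 47 of 71, 56 of 73 and 46 of 74 were lower. Of the assembly factors, which build the complexes, 16 of 31, 12 of 21, 11 of 22 and 19 of 27 were lower. Among carriers and cytochrome c genes, 7 of 10, 7 of 10, 6 of 10 and 6 of 10 were lower. Cytosolic ribosomal protein genes were lower in 73 of 89, 39 of 87, 13 of 88 and 13 of 90. The cycling markers stood at 99.7, 63.1, 81.6 and 67.0 CPM summed in cluster 7 and at 691, 167, 187 and 150 in the other clusters. All of those tested were lower in cluster 7. The other clusters include cluster 15, which cell cycle genes led, and levels without it are not given here. Without the cytosolic ribosomal and mitochondrially encoded genes in the total, the summed difference was -0.44, -0.47, -0.60 and -0.57.

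Neutrophil-like cluster 12 had the lowest sum of all, with few cells, numbering 53, 38, 41 and 116. It stood at 20635, 19569, 14894 and 13249 CPM. The log2 difference from macrophage/monocyte-like cells was -0.24 (-0.29 to -0.19), -0.36 (-0.43 to -0.29), -0.81 (-0.90 to -0.72) and -0.93 (-0.99 to -0.88). The subunits encoded in mitochondrial DNA differed by -0.20, -0.39, -0.08 and -0.24. In single libraries 37 of 80, 49 of 75, 67 of 77 and 70 of 76 members were lower past the fold (43.4%, 45.6%, 54.2% and 59.1% of all genes). In the control library the members' share (46.3%) was near that of all genes. Lower past the fold in each library were 18 of 75 members, against 14.8% of all genes. Cells of cluster 12 differed widely among themselves: over those with at least 1000 UMIs, members took 0.43% of UMIs at the lower quartile and 2.16% at the upper. The median UMI count of a cell was 1387, and Ptprc had a UMI in 27.8% of them; the part of these in the low sum was not tested.

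T cell-like cells had a slightly higher sum than macrophage/monocyte-like cells, by a log2 difference of 0.15, 0.15, 0.15 and 0.12 in the 4 libraries, and the complexes differed in direction. Over all libraries the differences were 0.08 for complex I, -0.40 for complex II, 0.17 for complex III, 0.10 for complex IV and 0.29 for complex V. Complex II was lower in T cell-like cells in each library, at 504, 534, 560 and 452 CPM against 630, 677, 746 and 644. Complex V was higher in each, at 7785, 8059, 8415 and 7707 against 6412, 6549, 6557 and 6512. The sum depended on the scale: it was 0.39 over all libraries without mitochondrially encoded and cytosolic ribosomal genes in the total, and 0.07 with each cell thinned to 1000 UMIs. Cytosolic ribosomal protein genes took 260837 CPM in T cell-like and 127205 in macrophage/monocyte-like cells, and mitochondrially encoded ones 10706 and 10748. Complex II stayed below 0 (-0.15 and -0.40) and complex V above 0 (0.54 and 0.22) under both. Complex I was 0.33 and -0.00. Summed levels of single clusters overlapped between the classes. Over all libraries, T cell-like clusters ran from 25432 CPM (cluster 6) to 29819 (cluster 9). Macrophage/monocyte-like clusters ran from 18605 CPM (cluster 7) to 27695 (cluster 15). The part of cluster makeup in the class difference was not tested.

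Within complex II, 3 of the 4 genes were lower in T cell-like than in macrophage/monocyte-like cells in all 4 libraries. That share was not computed for all genes. In the single libraries 58.7%, 60.1%, 61.4% and 63.9% of all genes had a log2 difference above 0. Sdhd stood at 123, 146, 135 and 106 CPM in T cell-like and 181, 227, 217 and 207 in macrophage/monocyte-like cells. Its log2 difference was -0.56 (-0.74 to -0.38), -0.63 (-0.84 to -0.44), -0.68 (-0.86 to -0.51) and -0.97 (-1.15 to -0.79). The 2 sets of levels did not overlap. Sdhc, the other membrane anchor, differed by -0.42, -0.62, -0.36 and -0.60, and Sdhb by -0.40, -0.24, -0.47 and -0.42. Sdha, the succinate-binding subunit, went the other way, by 0.33, 0.18, 0.34 and 0.18, with intervals that hold 0 for anti-PD-1 and the combination.

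Of 76 members tested in every library, 4 were lower in T cell-like cells past the fold in each of the 4 (19.6% of all genes were) and 9 higher (31.8%). Both shares are below that of all genes. In single libraries 16 of 80, 17 of 76, 24 of 77 and 23 of 77 members were higher (44.3%, 47.3%, 50.2% and 51.2% of all genes) and 16, 6, 8 and 11 lower (29.7%, 29.8%, 29.7% and 26.6%). With the libraries summed 14 of 81 were higher (50%) and 13 lower (28.2%). The 4 were Sdhd, Sdhc, Uqcr11 and Ndufb8. Uqcr11, a small subunit of complex III, stood at 261, 304, 311 and 265 CPM against 403, 405, 460 and 438, while Uqcrh of the same complex stood at 950, 814, 813 and 946 against 509, 487, 606 and 541. The 9 higher members were Ndufa4, Ndufa10, Ndufb11, Uqcrh, Uqcrc2, Atp5a1, Atp5c1, Atp5d and Atp5h. The last 4 of these belong to the head and stalks of the ATP synthase. Atp5a1 was higher by 0.40, 0.59, 0.66 and 0.56 and Atp5d by 0.62, 0.49, 0.61 and 0.57. Of 16 complex V genes, 13 were above 0 in all 4 libraries. That share was not computed for all genes, of which 58.7%, 60.1%, 61.4% and 63.9% were above 0 in the single libraries. Ndufa4 stood at 537, 486, 474 and 365 CPM in T cell-like and 334, 273, 231 and 225 in macrophage/monocyte-like cells.

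**Figure D3:**
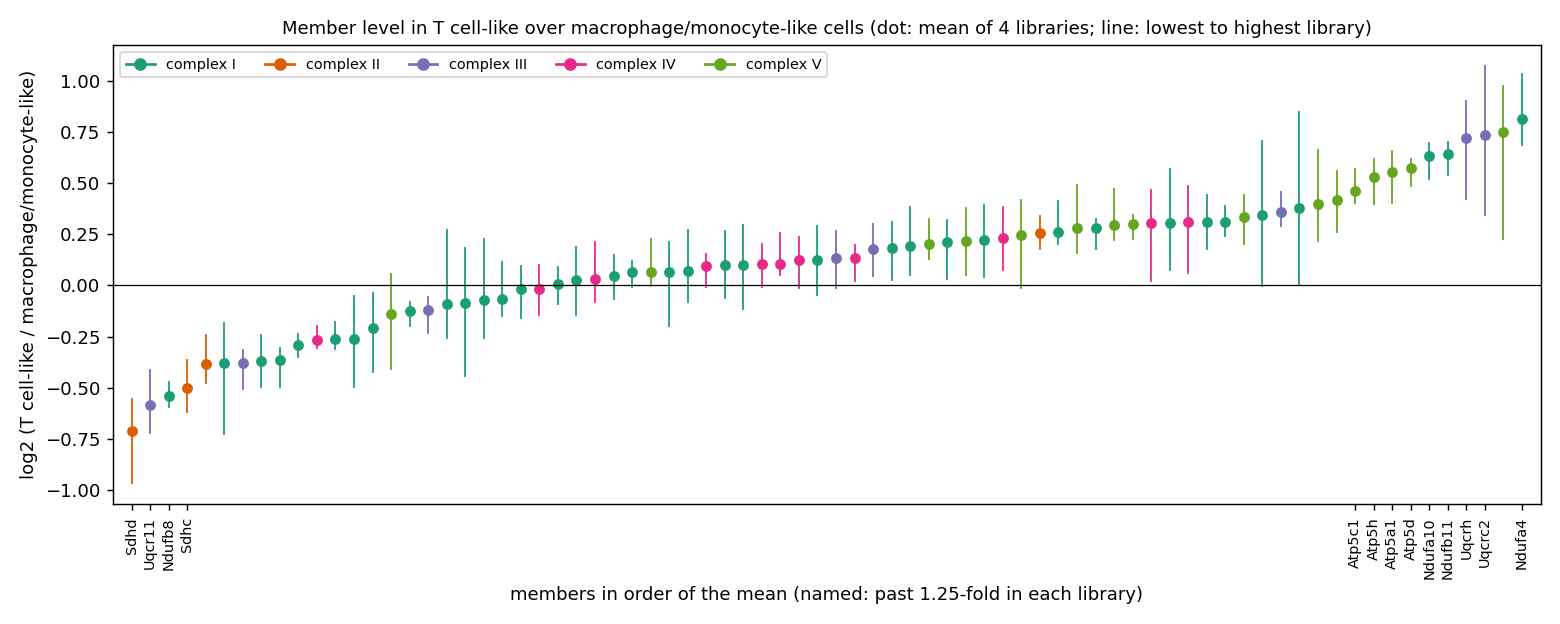
Log2 difference between T cell-like and macrophage/monocyte-like cells for the 76 members tested in all 4 libraries, ordered by their mean and coloured by complex, with names for the 13 past the fold in each library; dots are means of the 4 libraries and lines their range. Sdhd lies lowest of complex II with a mean of -0.71, and Ndufa4 highest of complex I with 0.81.

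Cycling cluster 9 had a higher sum than the pooled other T cell-like clusters, by 0.17, 0.08, 0.14 and 0.16 on the log2 scale. In single libraries 26 of 76, 20 of 74, 28 of 75 and 33 of 76 members were higher (27%, 28%, 32.6% and 31.2% of all genes) and 7, 6, 4 and 5 lower (30.8%, 32.6%, 28.7% and 28.7%). Higher past the fold in each library were 10 of 74 members (13.5%, against 12.7% of all genes) and lower 3 (4.05%, against 8.92%). The higher share was near that of all genes, and the lower share was below it. Summed members in T cell-like cluster 10 stood at 26708, 29003, 31676 and 29806 CPM, against 29489, 28875, 30494 and 29746 in cluster 9. Cluster 9 thus lay below cluster 10 in each treated library. Ndufc2 stood at 244, 348, 240 and 231 CPM in cluster 9 against 152, 151, 141 and 151 in the other T cell-like clusters. Ndufab1, the mitochondrial acyl carrier protein, stood at 234, 251, 317 and 339 CPM against 159, 203, 151 and 172. The 3 lower members were Ndufa6 (281, 280, 214 and 277 CPM against 417, 456, 485 and 506), Cox7a2l (471, 392, 498 and 460 against 667, 660, 666 and 691) and Uqcrh (721, 690, 655 and 713 against 1025, 868, 954 and 1026).

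Most tissue-specific isoforms were near 0, with 1 exception. Cox6a2, the form of subunit 6a known from heart and skeletal muscle, was concentrated in cluster 16, the plasmacytoid dendritic cell-like cells. It stood there at 659 (560 to 771), 1264 (1075 to 1477), 1101 (909 to 1322) and 813 CPM (653 to 1000). It was seen in 46 of 57, 27 of 36, 20 of 29 and 22 of 35 cells. Cluster 16 held 79.7% of all Cox6a2 UMIs, and Cox6a2 was among its 10 leading genes, so it helped to define the cluster. Of the 115 positive cells, 110 also had a UMI of Siglech, a plasmacytoid dendritic cell gene. Over all libraries 73.2% of the cells had a Cox6a2 UMI (median 3216 UMIs per cell), and 44.5% after thinning to 1000 UMIs. In macrophage/monocyte-like cluster 1, taken for comparison, 1.51% had one (median 4100), and 0.30% after thinning. Cluster 1 held 34 Cox6a2 UMIs and clusters 3, 9 and 14 held 0, so cluster 1 is not the lowest level.

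The common form Cox6a1 was also present in cluster 16, at 448, 640, 948 and 548 CPM, against 501, 582, 589 and 572 over all listed cells. Outside cluster 16, 44 of the other 132 Cox6a2 UMIs were in 16 control cells of cluster 15, and 23 of these in 1 cell with 10312 UMIs. In macrophage/monocyte-like cells Cox6a2 stood at 10.4 CPM in control and 2.66, 5.20 and 0.78 in the treated libraries. Without that cell the control level was 7.03 CPM, from 48 UMIs, and the log2 differences from it were -1.40 (-2.41 to -0.50), -0.43 (-1.18 to 0.28) and -3.17 (-4.86 to -1.85). Cluster 15 held 11.1% of the class's UMIs in control and 1.33%, 1.57% and 1.21% in the treated libraries. These differences do not adjust for that change in makeup, and its part in them was not tested. Cox4i2, a form of subunit 4 known from lung and low oxygen, was low everywhere and highest in clusters 7 (16.4 CPM) and 1 (13.5). In macrophage/monocyte-like cells it stood at 12, 6.74, 16.4 and 6.72 CPM. Cox6b2, known from testis, stood at 8.78, 4.70, 3.00 and 2.50 CPM in the same cells, from 60, 23, 15 and 16 UMIs. Cox7a1, the muscle form of subunit 7a, reached 11.5 CPM in cluster 2. Ndufa4l2 had 7 UMIs in cluster 18, of which 6 were in 1 cell.

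Each treated library was compared with the 1 control library, so the 3 comparisons share their control and are not independent. In macrophage/monocyte-like cells the summed members stood at 24403, 25138, 26059 and 25280 CPM. The log2 differences were 0.04 (0.03 to 0.05), 0.09 (0.08 to 0.11) and 0.05 (0.04 to 0.06). The differences are small, and the class changed in makeup: cluster 1 held 71.1% of its UMIs in control and 26.0%, 32.6% and 12.9% in the treated libraries, and cluster 7, with its low levels, 5.43%, 9.06%, 16.9% and 17%. With the control library's makeup the sums were 26667, 27804 and 27729 CPM, and the differences 0.13, 0.19 and 0.18. Without mitochondrially encoded and cytosolic ribosomal genes in the total, the difference with anti-PD-1 was -0.01.

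Within single clusters of the class, the sum was higher than in control in clusters 1, 2, 4 and 15 in each treated library. Cluster 1 stood at 24575 CPM in control and 26890, 27887 and 27809 in the treated libraries. Cluster 2 stood at 24186 and 25482, 27931 and 28176, cluster 4 at 22748 and 24599, 26370 and 25052, and cluster 15 at 26508 and 30539, 32170 and 32352. Cluster 7 differed, at 19265 and 19119, 18525 and 18232, with differences of -0.01 (-0.06 to 0.03), -0.06 (-0.10 to -0.02) and -0.08 (-0.12 to -0.04). Cluster 15 held 126 control cells but only 9, 14 and 14 treated ones. Over all 19 clusters, 15, 14 and 15 were above control.

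**Figure D4:**
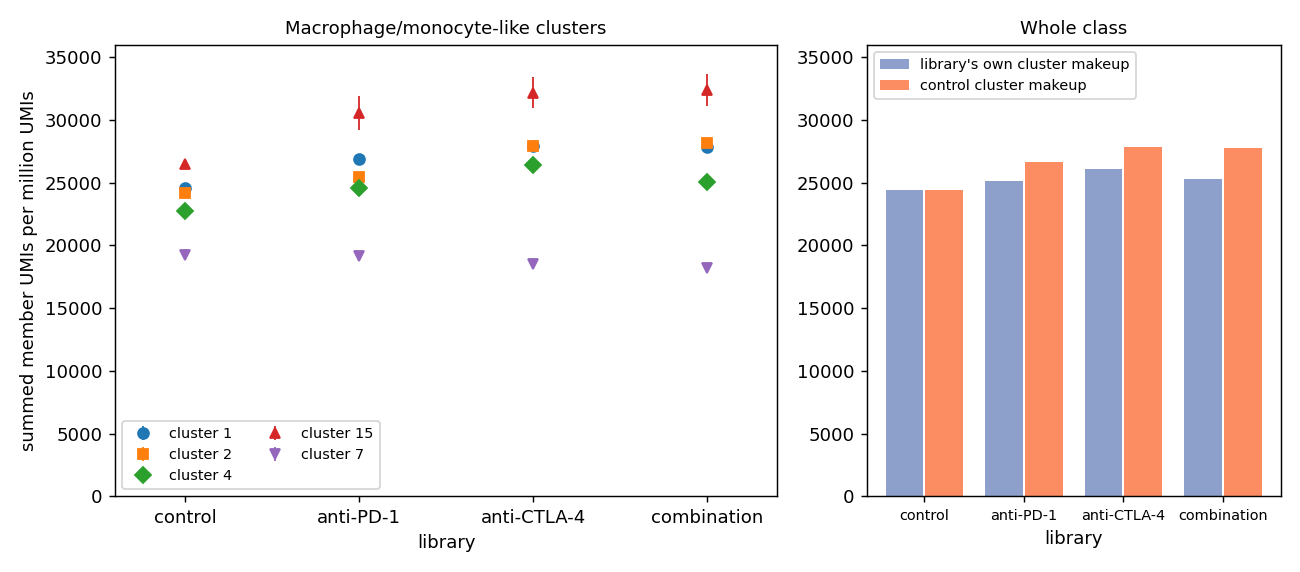
Summed level of the members in the 5 macrophage/monocyte-like clusters by library, in CPM with Poisson 95% intervals, beside the class as a whole with its own makeup and with the control library's cluster makeup. Cluster 7 lies lowest at 18232 to 19265 CPM, and the treated classes stand at 25138 to 26059 CPM with their own makeup and at 26667 to 27804 with that of control.

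By complex, macrophage/monocyte-like cells had complex IV at 6921 CPM in control and 7483, 8043 and 7720 in the treated libraries, a difference of 0.11 (0.09 to 0.13), 0.22 (0.20 to 0.24) and 0.16 (0.14 to 0.18). Complex I stood at 7981 and 7949, 7970 and 7822 CPM, with differences of -0.01, -0.00 and -0.03. These were 0.08, 0.12 and 0.15 with median-of-ratios scaling and 0.08, 0.11 and 0.14 with the control's cluster makeup. Complex II stood at 630 and 677, 746 and 644, complex III at 2459 and 2479, 2743 and 2581, and complex V at 6412 and 6549, 6557 and 6512. Placing Ndufa4 in complex IV gave 0.10, 0.19 and 0.13 for that complex. The subunits encoded in mitochondrial DNA stood lower in every treated library, at 12589 CPM in control and 10598, 10678 and 8949. The T cell-like class had these at 11937 and 10914, 10531 and 9604 CPM.

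T cell-like cells had summed members at 27043, 27820, 28968 and 27443 CPM. The differences were 0.04 (0.02 to 0.06), 0.10 (0.08 to 0.11) and 0.02 (0.01 to 0.04). The mean over cells gave -0.00 for the combination. Cycling cluster 9 held 24.8%, 30.6%, 47.3% and 25.5% of the class's UMIs, and with the control's makeup the differences were 0.05, 0.10 and 0.04. Complex II was lower with the combination, at 504 CPM in control and 452 (-0.16; -0.27 to -0.05), and not with anti-PD-1 (534) or anti-CTLA-4 (560). Complex I stood at 8171 and 8480, 8606 and 8364 CPM, complex IV at 7765 and 7898, 8415 and 8038, and complex V at 7785 and 8059, 8415 and 7707.

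Few members passed the fold used above (25% higher or 20% lower) against control. In macrophage/monocyte-like cells 4, 4 and 2 of 80 were higher (15.6%, 15.7% and 14.2% of all genes) and 6, 7 and 10 lower (29.4%, 34.1% and 38%). Members' medians were -0.01, 0.06 and 0.01, against -0.10, -0.15 and -0.19 for all genes. With the control's cluster makeup 13, 17 and 16 were higher (17%, 17.8% and 18% of all genes) and 5, 3 and 3 lower (26.6%, 29.1% and 33.1%), and the members' medians were 0.08, 0.15 and 0.11, against -0.06, -0.09 and -0.11 for all genes. Of the T cell-like comparisons' 76 members, 2, 4 and 2 were higher (18.5%, 21% and 17%) and 0, 1 and 2 lower (19.3%, 23.1% and 21.2%). In the same macrophage comparisons, 4, 5 and 5 of 16 tricarboxylic acid cycle genes, 14, 25 and 19 of 76 mitochondrial ribosomal protein genes and 53 of 91, 36 of 92 and 30 of 92 cytosolic ribosomal protein genes were lower.

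**Figure D5:**
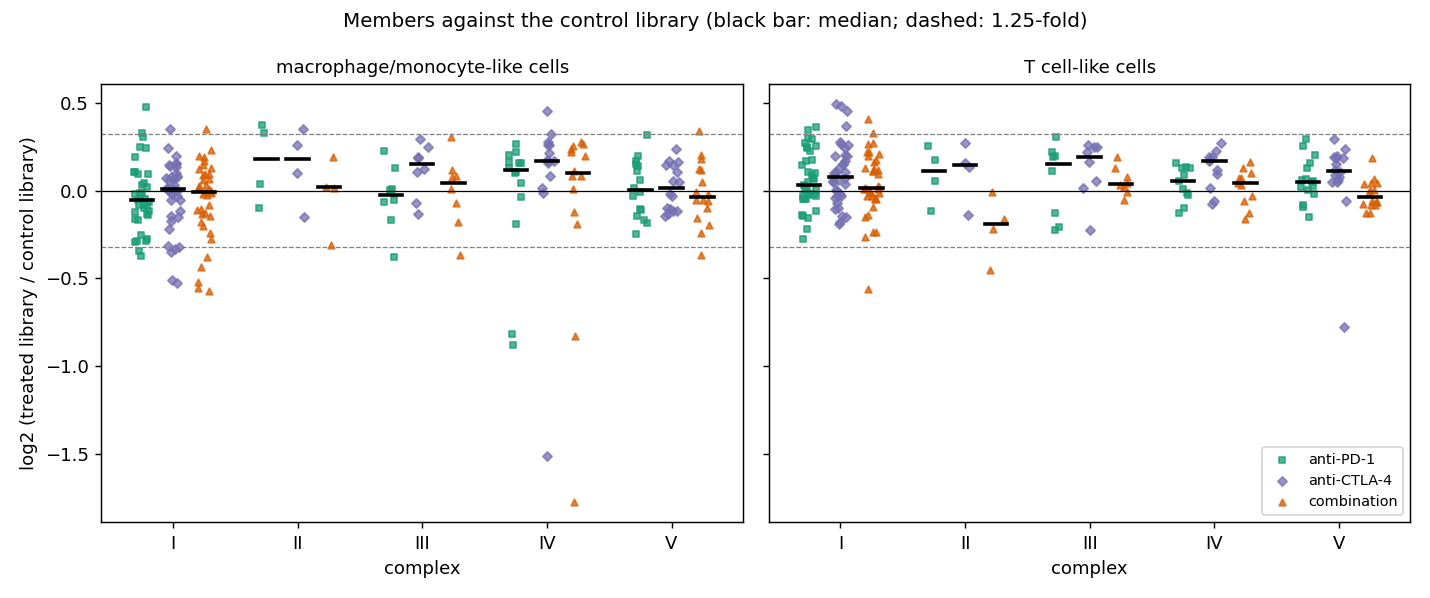
Log2 difference of each member from the control library in T cell-like cells and in the macrophage/monocyte-like class, by complex and treated library; black bars are medians per complex, dashed lines mark 25% higher and 20% lower, and Cox6a2, with few UMIs, is left out of the plot. Most members lie between the dashed lines, and the medians over all members run from -0.01 to 0.11.

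Ndufa1, a small membrane subunit of complex I encoded on the X chromosome, was among the highest members in the macrophage/monocyte-like cells of every treated library. It stood at 231 CPM in control and 323 (0.48; 0.38 to 0.58), 295 (0.35; 0.25 to 0.45) and 295 (0.35; 0.25 to 0.45), all 3 above control. With the control's makeup the differences were 0.34, 0.36 and 0.49, and it was above control in 5 of 5 clusters in each library. In cluster 1 alone it stood at 236 and 292, 300 and 338 CPM. Among T cell-like cells it stood at 254 CPM in control and 313 (0.30), 356 (0.49) and 279 (0.13; -0.01 to 0.28).

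Other members led in 1 or 2 libraries in macrophage/monocyte-like cells. Sdhb stood at 302 CPM in control and 282, 386 and 305, highest with anti-CTLA-4 (0.35; 0.26 to 0.44), where the control's makeup gave 0.52. Sdhc stood at 64.1 and 82.9, 68.7 and 65.0 CPM, and Sdhd at 181 and 227, 217 and 207. Their differences with anti-PD-1 were 0.37 and 0.33, and 0.68 and 0.42 with the control's makeup, which gives weight to the 9 cells of cluster 15. Atp5k, which joins ATP synthase dimers, stood at 346 CPM and 431, 408 and 438, and Uqcrq at 403 and 471, 495 and 498. Cox4i2 was nominally highest with anti-CTLA-4 at 0.45, with an interval that holds 0 (-0.01 to 0.91). Among the 3 lowest members in each comparison were Cox6a2 and Cox6b2, described above, joined by Cox4i2 with anti-PD-1 and the combination and by Ndufa4 with anti-CTLA-4.

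In T cell-like cells, Ndufa5 of complex I was among the 3 highest members in each treated library, at 136 CPM in control and 173 (0.35; 0.12 to 0.57), 187 (0.45; 0.26 to 0.66) and 171 (0.33; 0.13 to 0.52). Beside it stood Ndufb4 (0.36) and Uqcrb (0.31) with anti-PD-1, Ndufs7 (0.50) and Ndufa1 (0.49) with anti-CTLA-4, and Ndufb9 (0.41) and Ndufab1 (0.27) with the combination. Uqcrh was lower with the single antibodies, at 950 CPM in control and 814 (-0.22), 813 (-0.23) and 946 (-0.01). Sdha stood at 104 CPM and 95.9, 94.5 and 76.0, with -0.45 (-0.71 to -0.20) for the combination. The other low members were Ndufs8 (-0.27) and Ndufs1 (-0.22) with anti-PD-1, Atp5sl (-0.78, from 55 and 29 UMIs) and Ndufb5 (-0.19) with anti-CTLA-4, and Ndufs1 (-0.26) with the combination; the intervals of Ndufs1 hold 0.

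Ndufa4 was lower than in control in both classes. In macrophage/monocyte-like cells it stood at 334 CPM in control and 273 (-0.29; -0.39 to -0.19), 231 (-0.53; -0.63 to -0.43) and 225 (-0.57; -0.67 to -0.47). It was seen in 1012 of 1521, 679 of 1256, 659 of 1411 and 834 of 1868 cells; after thinning to 1000 UMIs the shares were 25.6%, 21.7%, 17.9% and 18.8%. The value depended on the makeup of the class: with that of the control the differences were -0.04, -0.30 and -0.05. Within cluster 7 the level was 242 CPM in control and 160 (-0.60), 138 (-0.81) and 139 (-0.81), while cluster 1 stood at 323 and 343, 265 and 319 and cluster 4 at 191 and 258, 234 and 209. In T cell-like cells it stood at 537 and 486 (-0.14), 474 (-0.18) and 365 CPM (-0.56; -0.67 to -0.45), and the control's makeup gave -0.14, -0.34 and -0.49. It was above control in 2, 0 and 0 of the 5 T cell-like clusters. In cycling cluster 9 it stood at 779 CPM in control and 626 (-0.32), 639 (-0.29) and 507 (-0.62).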

How the data were processed

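The authors deposited a matrix of UMI counts (genes by cell barcodes) for every library, made with Cell Ranger on mm10, and a table of cells with cluster numbers; Cell Ranger, Seurat and mm10 are named without versions in the submitters' processing notes. All cells in that table were used except 2 that had no column in the matrices. For each library and cluster or class, counts of its cells were added up and divided by all their UMIs. Log2 ratios of single genes had 0.5 added to each count and at least 50 UMIs over both sides. Intervals are exact at 95% and cover counting error only. With 1 library per group there are no p-values.

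Clusters were named from marker lists, using genes seen in at least 25% of a cluster's cells: a cluster took the type with most markers among its 10 leading genes or, where these held none (clusters 9 and 15), the type with most detected markers, with at least 3 detected. Cluster 13 held T cell and macrophage markers together and was left unnamed after this was seen. No doublet caller was run; leaving out the 3% of cells with the most UMIs was an alternative. Control makeup means that each cluster's level is weighted by its share of the class's UMIs in the control library. Thinning drew 1000 UMIs per cell and left out the 11, 195, 123 and 322 cells below that.

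The genes named were, per complex, the 3 members with the most UMIs; isoforms with at least 20 UMIs; per class and treated library, the 3 highest and 3 lowest members against control; and per cluster the 2 members highest over the median cluster. Genes named in the comparisons of cluster 7, cluster 9 and T cell-like cells, the levels of Ndufa4 beyond that rule, and AA467197 were chosen after their values were seen. Values of 1 member are counted in the sums but not reported here. The members and all lists were chosen with earlier results of these data known. The scripts were tested on simulated data. Python 3.11.15, numpy 2.4.6, pandas 2.3.3, scipy 1.17.1 and matplotlib 3.10.9 were used.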

Additional observations from a re-analysis of the deposited data

Results flagged for a closer look

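Complex I stood on opposite sides of the control in the classes with the combination. Its summed level differed from control by -0.0291 on the log2 scale in macrophage/monocyte-like cells and by 0.0338 in T cell-like cells. The opposite signs depended on the scaling: both classes were above control with median-of-ratios scaling (0.15 and 0.06) and with the control's cluster makeup (0.14 and 0.06). With mitochondrially encoded and ribosomal protein genes out of the total the signs stayed opposite (-0.07 and 0.05). Each class had 1 library per group, and the difference between the classes was not tested.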

How the results depend on the processing

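Each group has 1 library, so no library could be left out and no spread between replicates is known. No paired analysis was possible because each group has 1 library. Sparse genes are limited by depth, as the intervals show. The log2 difference of the summed members from control in macrophage/monocyte-like cells was 0.0428, 0.0947 and 0.0509 (anti-PD-1, anti-CTLA-4, both). It became 0.126, 0.217 and 0.231 with median-of-ratios scaling, which shifts all genes of the class by 0.08, 0.12 and 0.18, and 0.128, 0.188 and 0.184 with the control makeup. It became -0.0132, 0.0500 and 0.00846 with mitochondrially encoded and ribosomal protein genes out of the total, where the sign turned for anti-PD-1. For anti-PD-1 and both antibodies, thinning gave 0.0549 and 0.0730, the mean over cells 0.0583 and 0.0908, and leaving out the cycling cluster 0.0542 and 0.0615. Adding cluster 0 to the class gave 0.0718 for anti-PD-1 and 0.125 for anti-CTLA-4.

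In T cell-like cells the differences were 0.0409, 0.0992 and 0.0212. Anti-PD-1 gave 0.0216 with median-of-ratios scaling and 0.0602 without the cycling cluster. Anti-CTLA-4 gave 0.118 with the reduced total, 0.0629 as the mean over cells, 0.0729 without the cycling cluster and 0.0592 without the 3% of cells with the most UMIs. Both antibodies gave 0.0488 with median-of-ratios scaling, 0.0389 with the reduced total, 0.0399 with the control makeup and, with the sign turned, -0.000673 as the mean over cells. The causes were not tested.

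Members counted as higher in macrophage/monocyte-like cells went from 4, 4 and 2 to 9, 14 and 17 with median-of-ratios scaling (20%, 21.7% and 23.0% of all genes), and to 2 (anti-PD-1; 15.3%) and 1 (both; 13.6%) with cluster 0 added. Those lower went from 6, 7 and 10 to 3, 4 and 6 with that scaling (23.2%, 24.6% and 24.7%), and to 4 for anti-CTLA-4 with cluster 0 added (29.2%). In T cell-like cells a minimum of 1 count gave 4 higher for anti-PD-1 and for both antibodies (28.0% and 25.5%), and 2, 4 and 5 lower (28.8%, 32.6% and 30.4%). Without the cycling cluster, 7 were higher for anti-PD-1 (19.5%) and 8 for anti-CTLA-4 (17.1%), and 2 and 4 lower (20% and 24.5%). A minimum of 20 counts, or 1 added to each count, moved none of the 12 counts past 1.5 times. The fold between the highest and lowest cluster sum was 1.80, 2.27 after thinning and 2.17 with the reduced total. The share of cluster 16 cells with Cox6a2 was 73.2%, and 44.5% after thinning. The control makeup per member, the other scalings of complex I, Cox6a2 without 1 cell, the shares of all genes under the control makeup, the 20 UMI cap, the cluster 2 reference, single clusters, and the reduced total and thinning in comparisons of cell groups were chosen after seeing the data.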

Other observations

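AA467197, a gene related to Ndufa4 that lies outside the symbol rule and was chosen after its values were seen, stood at 13.9, 56.2, 69.1 and 157 CPM in macrophage/monocyte-like cells (control, PD-1 antibody, CTLA-4 antibody, both). In cluster 7 it stood at 48.5, 126, 137 and 172 CPM, and in cluster 4 at 17, 84.5, 92.1 and 233. In cluster 1 it stood at 8.64, 11.8, 9.21 and 12.1 CPM. In T cell-like cells AA467197 stood at 58.0, 94.8, 71.3 and 91.3 CPM, a narrower range over the libraries than in macrophage/monocyte-like cells.

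Single cells sometimes held many UMIs of 1 member. In 1582 cells a member had more than 20 UMIs, up to 109, while the median where a member was present was 1. This held for 74 members, and UMIs beyond 20 made up 2.00% of all member UMIs.

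The ratio of nuclear to mitochondrially encoded subunit UMIs ran from 1.66 in plasmacytoid dendritic cell-like cluster 16 and 1.82 in cycling cluster 15 to 3.23 in T cell-like cluster 10. It was 2.97 in cluster 7 and 1.85 in neutrophil-like cluster 12.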
